A study of Rattus norvegicus with 8 samples.

Results

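MicroRNAs (miRNAs) of sham-operated rat synovium were profiled on 4 Agilent single-colour arrays, sham replicates 1 to 4. The profile covers the rat miRNAs that the scanner software called detected on all 4 of these arrays, which were 106 of 758 on the array design. These miRNAs were chosen by their detection calls, and every signal, rank and share given for them comes from the same spots. All values are therefore descriptions, with no test.

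The series holds 8 arrays of synovial tissue, the lining of the joint, from left knees of Sprague-Dawley rats, 4 after transection of the anterior cruciate ligament (ACLT) and 4 after sham surgery. In the sham group the joint was opened and the ligament exposed but left uncut, and the tissue came from the side of the knee away from the incision. The sham tissue is thus that of an operated knee, not of an untouched one. The labels disagree on when it was taken, with 14 days in the title, 2 weeks in the protocol and 7 days in the design text. They number the replicates without saying that each was a separate animal, and they give no age. Only the sham arrays are described here.

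A miRNA is a short RNA cut from a hairpin precursor, and it represses messenger RNAs that pair with its seed, bases 2 to 8 counted from the 5′ end. Each hairpin can yield a product from its 5p arm and one from its 3p arm, and as a rule one of them is kept in the silencing complex and the other is degraded. Related miRNAs that share a seed form a family and can repress the same messages. Synovium is built from fibroblast-like and macrophage-like lining cells over a layer with vessels, fat and fibrous tissue, so its miRNA mix combines those of mesenchymal, vascular and blood cells. In bulk tissue, fewer cells of a type and less RNA per cell cannot be told apart.

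Mature sequences were taken from RefSeq (build GRCr8), which matched 96 of the 106 miRNAs by name. The let-7 family is shown first because it carried the largest share of the signal, 35.6% on average. Its 9 members share 1 seed, in capitals, and differ at few other positions.
let-7c-5p: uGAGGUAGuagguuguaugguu
let-7b-5p: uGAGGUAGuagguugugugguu
let-7a-5p: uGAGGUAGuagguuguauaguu
let-7f-5p: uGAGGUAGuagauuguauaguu
let-7i-5p: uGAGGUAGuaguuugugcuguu
let-7d-5p: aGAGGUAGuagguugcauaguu
let-7e-5p: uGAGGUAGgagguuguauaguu
let-7g-5p: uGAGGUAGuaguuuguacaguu
miR-98-5p: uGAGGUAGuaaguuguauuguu

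Counted from 1 at the 5′ end, let-7c-5p becomes let-7b-5p by A17G and let-7a-5p by G19A, and let-7a-5p becomes let-7f-5p by G12A and let-7e-5p by U9G. The next sets are shown because their signals follow in size or vary most between arrays. The miR-15/16 seed group followed let-7 in share, and the miR-23 and miR-27 pairs stand for steady signal, again with seeds in capitals.
miR-16-5p: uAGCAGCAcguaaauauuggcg
miR-195-5p: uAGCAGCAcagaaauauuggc
miR-497-5p: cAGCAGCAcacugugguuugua
miR-15b-5p: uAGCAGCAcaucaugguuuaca
miR-322-5p: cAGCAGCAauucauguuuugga
miR-23a-3p: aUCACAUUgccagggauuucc
miR-23b-3p: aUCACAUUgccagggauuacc
miR-27a-3p: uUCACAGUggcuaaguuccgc
miR-27b-3p: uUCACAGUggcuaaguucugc

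Both arms of the miR-199a hairpin were detected, and they have different seeds.
miR-199a-5p: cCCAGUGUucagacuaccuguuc
miR-199a-3p: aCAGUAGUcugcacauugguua

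The muscle miRNAs of the miR-1 and miR-206 group share a seed too, and miR-1b becomes miR-1-3p by A17G.
miR-1b: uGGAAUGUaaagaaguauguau
miR-1-3p: uGGAAUGUaaagaaguguguau
miR-206-3p: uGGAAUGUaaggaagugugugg

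Of the miRNAs that were relatively dim on sham replicate 4, 4 hold the letters UGUGUG.
miR-466b-5p: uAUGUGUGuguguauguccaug
miR-466d: aUGUGUGUguauguucuuuugu
miR-32-3p: gCAAUUUAgugugugugauauu
miR-672-5p: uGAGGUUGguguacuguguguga

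The 4 arrays differed in brightness. Summed over the detected miRNAs, the signal was 18163, 21589, 19743 and 73471 units on sham replicates 1 to 4, with 111, 126, 118 and 184 miRNAs detected, 134.75 ± 33.4 (SD, n = 4). Sham replicate 4 stood apart, and 58 of the 61 miRNAs detected on only 1 sham array were detected there. It did not set the membership, since the same number, 106, was detected on replicates 1 to 3 alone. Across the 106 miRNAs, Spearman correlations of signal were 0.94 to 0.96 among replicates 1 to 3 and 0.88 to 0.92 between each of them and replicate 4, a description over miRNAs that share an array. To set arrays of unequal brightness side by side, each miRNA is given as a share, in percent, of the summed signal of its array. A signal depends on how well the probes bind as well as on how much miRNA is present, so ranks between miRNAs are ranks of signal. At the edge of the rule, the miRNAs with the lowest signal on any array were miR-539-5p (3.09 units on replicate 4), miR-99b-3p (3.18 on replicate 1) and miR-376b-5p (3.19 on replicate 1). Just outside it lay 8 miRNAs detected on 3 sham arrays, with miR-92a-3p (10.7, 11.1 and 50.9 units on replicates 2 to 4), miR-324-5p and miR-365-3p the brightest by mean.

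Few miRNAs carried most of the signal. The 5 highest summed to 36.8% ± 3.38 (SD, n = 4), the 10 highest to 50.7% ± 3.31 and the 20 highest to 70.7% ± 5.02. On replicates 1 to 4 it took 9, 9, 12 and 10 miRNAs to reach 50% of the signal and 39, 41, 44 and 38 to reach 90%. The 106 miRNAs together made up 98.2% to 99.8% of the signal of each array. By mean share, 29 miRNAs lay at or above 1%, 50 between 0.1% and 1%, and 27 below 0.1%, and the highest mean was 776 times the lowest.

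**Figure D1:**
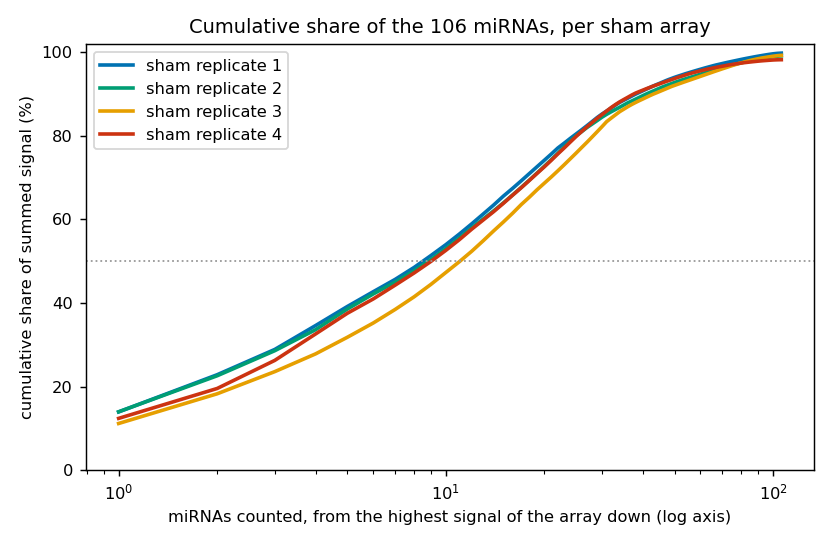
Cumulative share of summed signal (percent, y axis) against the number of miRNAs counted from the highest signal of the array down (log x axis), 1 line per sham replicate; the dotted line marks 50%. The lines of replicates 1, 2 and 4 cross it at 9 or 10 miRNAs and that of replicate 3 at 12.

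The 5 highest miRNAs held ranks 1 to 5 in the same order on all 4 arrays. The let-7 miRNAs, which promote differentiation and repress growth genes such as Hmga2, took the first 3. With each miRNA's brightest probe in place of the software's summary, let-7a-5p (4.83%) came below miR-199a-3p (4.87%) by mean share. let-7c-5p had a share of 13.9%, 14.0%, 11.2% and 12.4% on replicates 1 to 4, 12.9% ± 1.35 (SD, n = 4). let-7b-5p had 8.89%, 8.62%, 7.11% and 7.15%, 7.94% ± 0.946 (SD, n = 4). let-7a-5p had 6.05%, 6.0%, 5.30% and 6.72%, 6.02% ± 0.580 (SD, n = 4). The ranges of these 3 did not overlap, and replicate 3 was the lowest array for each. Rank 4 went to miR-199a-3p, from a locus active in mesenchymal cells, with 5.73%, 5.04%, 4.26% and 6.34%, 5.34% ± 0.896 (SD, n = 4). Rank 5 went to miR-16-5p, a repressor of cell cycle genes, with 4.56%, 4.93%, 3.97% and 4.95%, 4.60% ± 0.457 (SD, n = 4). Ranks 3 and 4 overlapped in range, as did ranks 4 and 5, though the order within each array was the same.

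Below rank 5 the order moved between arrays. miR-125b-5p, the vertebrate counterpart of nematode lin-4, was at rank 6 on replicates 1 to 3 and at rank 12 on replicate 4, with 3.53%, 3.61%, 3.41% and 2.51%. miR-26a-5p, known to repress Ezh2, ranked 10, 7, 7 and 20, with 2.62%, 2.83%, 3.25% and 1.57%. For both, replicate 4 was the lowest array and lay apart from the other 3. miR-21-5p, often raised in fibrotic and inflamed tissue, ranked 8, 16, 19 and 7, with 2.87%, 1.88%, 1.77% and 3.30%. Its shares fell into a higher pair, replicates 1 and 4, and a lower pair, replicates 2 and 3. miR-22-3p, a broadly expressed miRNA, had 1.80%, 1.62%, 1.77% and 2.92%, and only replicate 4 was high. The set of the 20 highest by mean share was the top 20 of replicates 1, 2 and 4 and gave 16 of the top 20 of replicate 3, where miR-1b, miR-133b-3p, miR-206-3p and miR-1-3p entered at ranks 9, 8, 10 and 15.

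**Figure D2:**
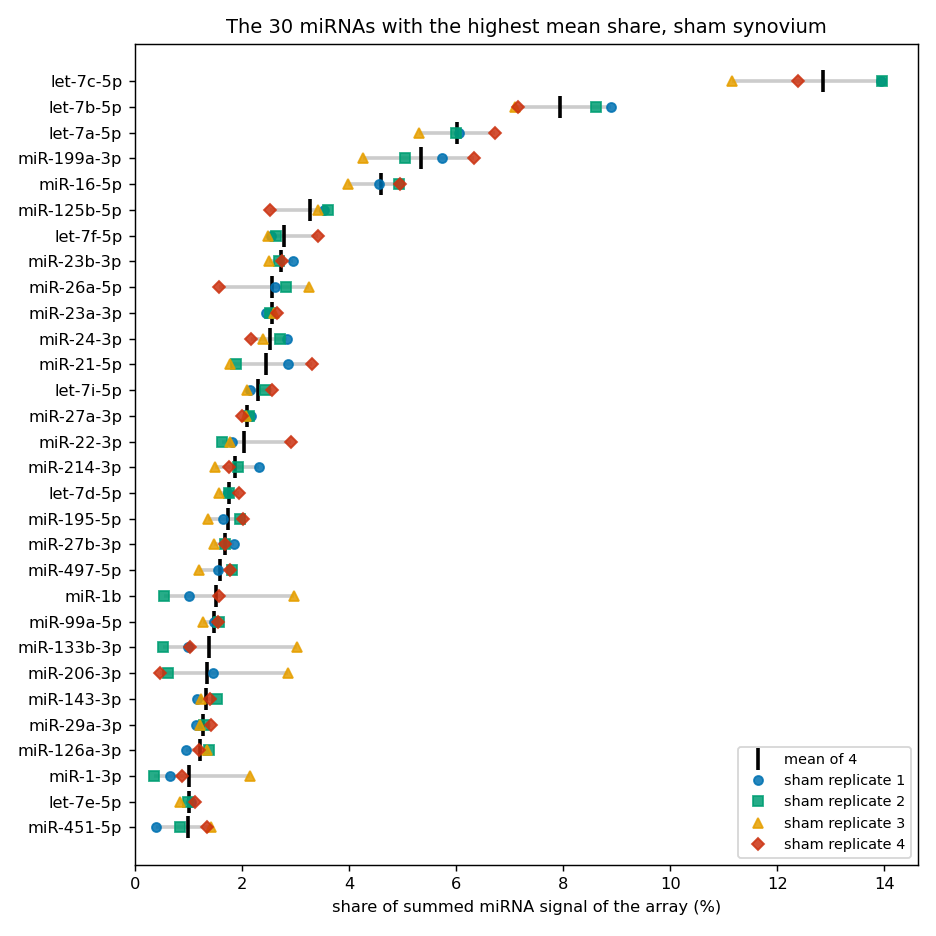
Share of the array's summed miRNA signal (percent, x axis) of the 30 miRNAs with the highest mean share, with 1 point per sham replicate, the range as a grey line and the mean of 4 as a black mark. let-7c-5p, let-7b-5p and let-7a-5p lie farthest right, and for miR-1b, miR-133b-3p, miR-206-3p and miR-1-3p replicate 3 is the highest point.

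By family, let-7 came first. All 9 of its members on the array were detected on all sham arrays, and they summed to 37.1%, 37.3%, 31.4% and 36.4% of the signal, 35.6% ± 2.81 (SD, n = 4). Within the family the mean shares ran from 12.9% for let-7c-5p to 0.0767% for miR-98-5p, with let-7f-5p at 2.77%, let-7i-5p at 2.30%, let-7d-5p at 1.75%, let-7e-5p at 1.00% and let-7g-5p at 0.828%. Because its members differ by as little as 1 base, a probe may also bind a relative, and the split within the family is less certain than its sum. The same holds for 37 of the 96 miRNAs with a sequence, which lay within 3 bases of another of the 96. Relatives outside the 96 were not compared, so more miRNAs may be affected.

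The miR-23, miR-27 and miR-24 miRNAs, transcribed from 2 paralogous clusters, were the steadiest large group. All 5 were detected, and they summed to 12.2%, 11.7%, 11.0% and 11.3%, 11.6% ± 0.538 (SD, n = 4). miR-27a-3p (2.09% ± 0.0715, SD, n = 4) and miR-23a-3p (2.55% ± 0.0923) had the lowest spread of all 106 miRNAs on the log2 scale, with an SD of 0.05 for each. Their cluster mates miR-23b-3p at 2.72%, miR-24-3p at 2.52% and miR-27b-3p at 1.67% lay at similar levels. The miR-15/16 family, which represses cyclins, had all 6 members detected and 8.46%, 9.50%, 7.25% and 9.78%, 8.74% ± 1.15 (SD, n = 4). After miR-16-5p its highest members were miR-195-5p (1.74% ± 0.305) and miR-497-5p (1.59% ± 0.280), which come from 1 cluster, and miR-15b-5p was at 0.440%.

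The remaining complete families were smaller. Those of miR-125 (3.40% ± 0.546, SD, n = 4) and miR-26 (3.15% ± 0.653) had both members detected, and in each replicate 4 was the lowest array. All 3 members of the miR-29 family, which represses collagen messages, were detected at 1.84% ± 0.241 in all, led by miR-29a-3p with 1.13%, 1.29%, 1.22% and 1.41%. The 5 members of the miR-30 family summed to 0.681% ± 0.226. The Hox-embedded miR-10 pair gave 0.669% ± 0.107 and the 3 detected miR-196 miRNAs, also encoded in Hox clusters, 0.573% ± 0.0220 (SD, n = 4 each). miR-196a-5p had 0.210%, 0.196%, 0.218% and 0.208%, and all arrays lay close together.

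Other families were represented by some members only, beside 106 of 758 miRNAs detected on all sham arrays over the whole array. The p53-induced miR-34 family had 1 of 3, miR-34a-5p, with 0.502%, 0.336%, 0.313% and 0.533%, while miR-34b-5p and miR-34c-5p were detected on replicate 4 alone. Of the proliferation-linked miR-17-92 miRNAs and their paralogs 4 of 11 were detected on all arrays, namely miR-106b-5p, miR-19b-3p, miR-20a-5p and miR-25-3p, each under 0.2%. The miR-181 family had 3 of 4, led by miR-181a-5p with 0.404% ± 0.0955 (SD, n = 4). miR-146a-5p, induced by NF-kappaB, had 0.316%, 0.309%, 0.307% and 0.367%, and its relative miR-146b-5p was detected on 2 arrays. miR-221-3p was at 0.0707% ± 0.0224 (SD, n = 4), and miR-222-3p was detected on none.

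Grouped by the seed in RefSeq rather than by list, 43 of the 96 miRNAs fell into 14 groups of 2 or more, with a summed mean share of 68.1%. After the let-7 seed (GAGGUAG) came AGCAGCA of the miR-15/16 group (8.57%), UCACAUU of miR-23 (5.28%) and GGAAUGU of miR-1 and miR-206 (3.87%). The GGAAUGU group varied most of these, with 3.13%, 1.51%, 7.97% and 2.90%, and replicate 3 was the highest array.

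**Figure D3:**
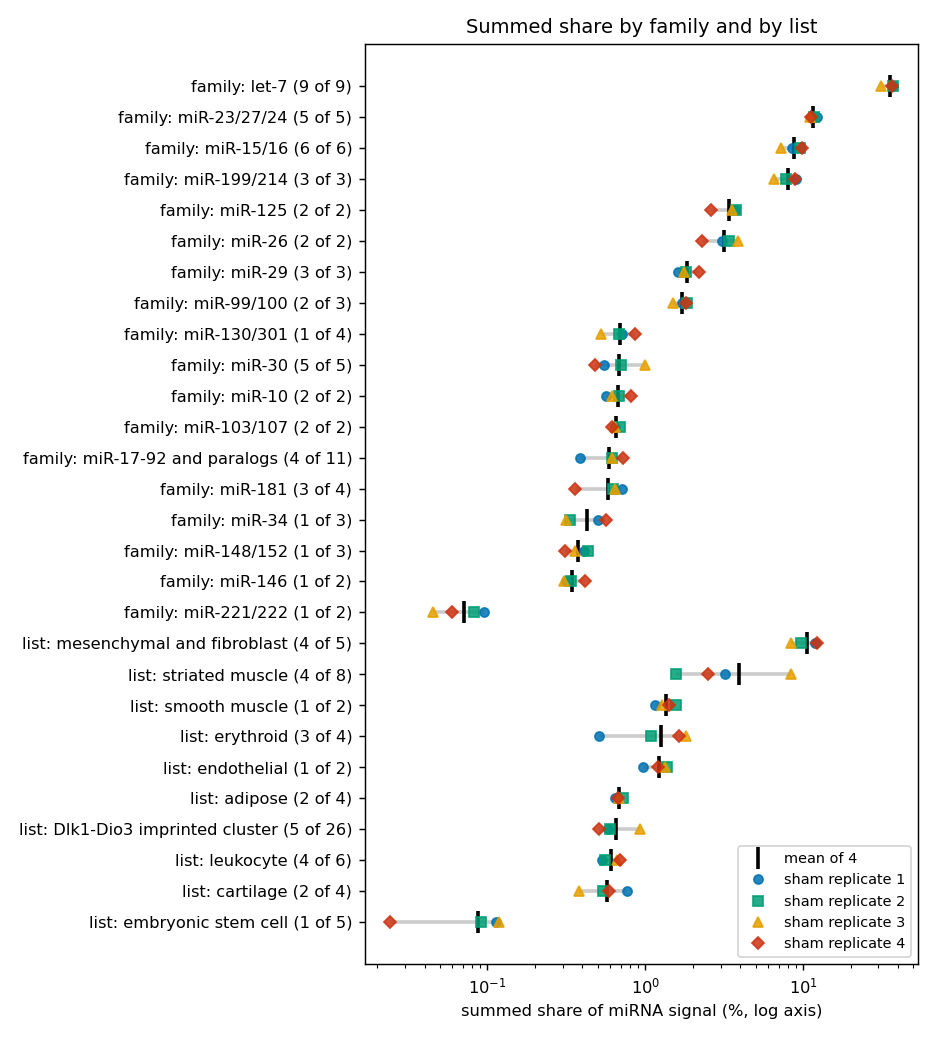
Summed share of signal (percent, log x axis) of each family and each cell-type or cluster list with at least 1 miRNA detected on all sham arrays, with the number detected on all 4 of those on the array in brackets; points are sham replicates, grey lines ranges and black marks means of 4. The miR-23/27/24 points lie close together at 11.0% to 12.2%, while the striated muscle list spreads from 1.56% to 8.38%.

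Markers of the cells that synovium holds were detected in part. Over the whole array 106 of 758 miRNAs were detected on all 4 sham arrays. For the endothelial and the smooth muscle list it was 1 of 2 each. In the mesenchymal and fibroblast list, 4 of 5 miRNAs were detected on all arrays, and the list summed to 11.9%, 9.69%, 8.35% and 12.2%, 10.6% ± 1.86 (SD, n = 4). Besides miR-199a-3p and miR-21-5p they were miR-214-3p, from the same transcript as miR-199a, with 2.33%, 1.93%, 1.49% and 1.75%, and miR-199a-5p with 0.998%, 0.814%, 0.793% and 0.854%. Replicate 3 was the lowest array for all 4 of them. miR-126a-3p, the endothelial miRNA of the Egfl7 locus, had 0.962%, 1.38%, 1.34% and 1.20%. The other entry of the endothelial list, its 5p arm miR-126a-5p, was detected on no sham array. miR-143-3p, of smooth muscle and fibroblasts, had 1.15%, 1.54%, 1.23% and 1.40%. Its cluster partner miR-145-5p was far dimmer, at 6.30, 8.32 and 6.47 units on replicates 2 to 4 and not detected on replicate 1, while miR-143-3p was at 209 to 1031 units over the 4 arrays.

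Blood cell miRNAs were detected too. Of 6 leukocyte miRNAs 4 were detected on all arrays, beside 106 of 758 miRNAs over the whole array. The list of 6 summed to 0.529%, 0.552%, 0.658% and 0.691%, 0.608% ± 0.0786 (SD, n = 4), on average most of it from miR-146a-5p. The 4 alone had a mean of 0.596%. On replicate 4 the sum includes miR-142-5p (0.0363%) and miR-155-5p (0.0100%), detected there alone. miR-223-3p, of myeloid cells, had 0.104%, 0.0989%, 0.170% and 0.122%, and miR-142-3p, of all blood lineages, 0.0521%, 0.0581%, 0.0726% and 0.111%. miR-150-5p, of lymphocytes, was at 0.0736% ± 0.0289 (SD, n = 4), and miR-155-5p, of activated leukocytes, was detected on replicate 4 alone. The red cell miRNA miR-451-5p had 0.398%, 0.839%, 1.42% and 1.34%, so that replicate 1 was the lowest array, 3.57-fold under the highest. Its cluster mate miR-144-3p had 0.0758%, 0.162%, 0.191% and 0.238% and was also lowest there. The erythroid list varied from 0.510% to 1.82%, and how far residual blood set this was not tested.

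Striated muscle miRNAs were detected on every sham array and varied more than any other abundant group. The list summed to 3.21%, 1.56%, 8.38% and 2.50%, 3.91% ± 3.06 (SD, n = 4), and to 2.42% without replicate 3. miR-133b-3p had 0.983%, 0.522%, 3.03% and 1.03%, and miR-1-3p, found in heart and skeletal muscle, 0.661%, 0.358%, 2.14% and 0.876%. miR-206-3p, of skeletal muscle, had 1.46%, 0.608%, 2.86% and 0.461%. Replicate 3 was the highest array for all of them, and replicate 2 was the lowest for all but miR-206-3p, which was lowest on replicate 4. miR-1b, which was not in the list and differs from miR-1-3p by 1 base, followed with 1.01%, 0.539%, 2.97% and 1.56%. miR-133a-3p was detected on replicates 3 and 4, miR-499-5p on replicate 4, and miR-208a-3p and miR-208b-3p, of heart and slow muscle, on none. As all shares sum to 100%, a high muscle share lowers the others, and with the muscle list left out of the total the share of the 10 highest was 52.7% ± 2.10 (SD, n = 4). miR-486, of red cells and muscle, had 0.0362%, 0.0842%, 0.208% and 0.0438% and was likewise highest on replicate 3.

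Of the cartilage and adipose lists, part was detected on all arrays. miR-140, of the cartilage-expressed Wwp2 gene, gave 0.331%, 0.251%, 0.196% and 0.341% for its 5p and 0.389%, 0.258%, 0.183% and 0.210% for its 3p arm, while miR-455-3p was detected on 3 arrays and miR-455-5p on none. miR-103-3p (0.380% ± 0.0503, SD, n = 4) and miR-107-3p (0.268% ± 0.0293) were the 2 of 4 adipose miRNAs detected throughout. Of the others in that list, miR-365-3p was detected on 3 sham arrays and miR-193b-3p on none, and miR-378a-3p was not on the array. Whether the signal of miR-103-3p and miR-107-3p came from fat was not tested. For the Dlk1-Dio3 imprinted cluster, a large miRNA cluster of placental mammals, 5 of 26 listed miRNAs were detected on all arrays and 12 on none. Over all rat miRNAs on the array, 106 of 758 were detected on all arrays. The list does not cover the whole cluster: miR-376b-5p, whose 3p arm is listed, was also detected on all arrays. By mean share miR-494-3p was the highest of the 5, but on replicate 4 it was below miR-127-3p, miR-379-5p and miR-154-5p.

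Markers of tissues outside the joint were mostly not detected, which on the dimmer arrays is no sign of absence. Over all rat miRNAs on the array, 568 of 758 were detected on no sham array, so this was the usual outcome. Beside that share, 5 of 8 neural, 2 of 3 liver and 4 of 5 embryonic stem cell miRNAs were detected on none, which is a description only. None of 10 epithelial miRNAs, among them the miR-200 family and miR-205, was detected on any sham array, and neither was miR-375-3p of pancreatic islets. Of 8 neural miRNAs 0 were detected on replicates 1 to 3, and 3 (miR-128-3p, miR-219a-5p and miR-7a-5p) were detected on replicate 4 at 5.46 to 20.7 units. miR-122-5p, of liver, was detected on replicate 2 alone, at 6.27 units. The exception was miR-290, of an embryonic stem cell cluster, with 20.7, 19.6, 23.4 and 17.7 units on all 4 arrays, while the other 4 of its list were detected on none. On the bright replicate 4 the signal of miR-290 was 0.858 times the median of the other arrays. Over the 106 miRNAs that ratio had a median of 3.58.

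The detected miRNAs came more often from 5p arms. Of the 106, 56 were named 5p, 39 were named 3p and 11 carried no arm, which is 18.1% of 309 5p, 12.5% of 313 3p and 8.09% of 136 other miRNAs on the array. By signal, 5p arms held 61.9% ± 3.30 and 3p arms 33.0% ± 1.80 (SD, n = 4 each), and the let-7 family alone gave most of the 5p signal. Of 314 pairs of a 5p and a 3p arm on the array, 54 had only the 5p arm and 37 only the 3p arm among the 106, and 5 had both. In 78 of the 91 pairs with 1 arm the other arm was detected on no sham array. The rest were such as miR-133a, whose 5p arm was detected on all arrays at 15.7 to 78.4 units while its 3p arm, the arm named in most work on muscle, was detected on 2. For miR-99b, likewise, the 3p arm was detected on all arrays, at 3.18 to 4.84 units, and the 5p arm on 2.

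For the 5 hairpins with both arms, the ratio of 5p to 3p signal within an array was steady in some and not in others. In miR-99a the 5p arm exceeded the 3p arm by 6.15, 5.33, 5.99 and 5.89 on the log2 scale, 5.84 ± 0.36 (SD, n = 4). In miR-199a it was the 3p arm that was higher, with log2 ratios of -2.52, -2.63, -2.43 and -2.89, -2.62 ± 0.20 (SD, n = 4). The 2 arms of miR-140 had log2 ratios of -0.23, -0.04, 0.10 and 0.70, 0.13 ± 0.40 (SD, n = 4), so neither arm was the higher one on all arrays. The ratios of miR-652 (-0.14, -0.19, 0.34 and -2.03) and of miR-29b-1-5p over miR-29b-3p (-1.90, -2.40, -2.50 and -4.41) were lowest on replicate 4. Without replicate 4 the mean was 0.00033 for miR-652, -0.06 for miR-140 and -2.27 for miR-29b-1. miR-29b-3p also comes from a further hairpin, so its ratio is not that of 1 precursor.

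**Figure D4:**
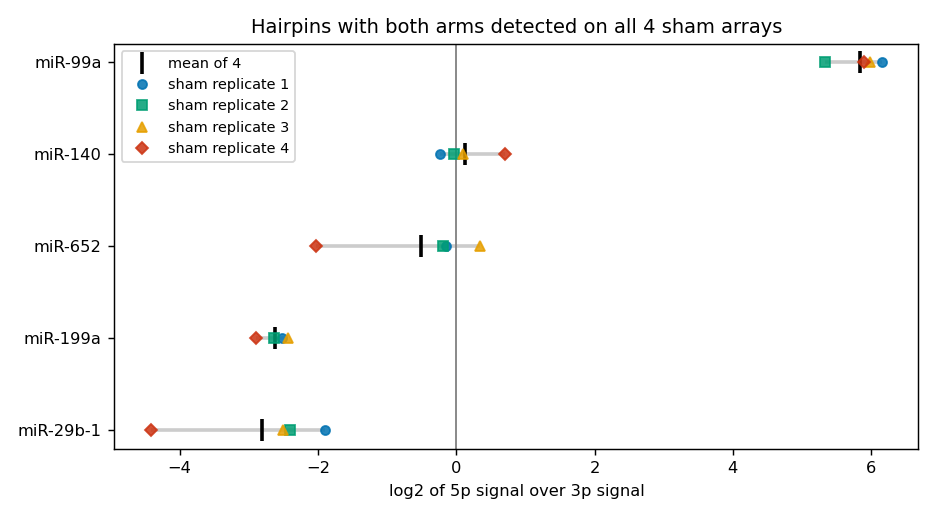
log2 of 5p over 3p signal (x axis) for the 5 hairpins with both arms detected on all 4 sham arrays, with points per replicate, grey ranges and black means. miR-99a lies near 6 and miR-199a between -2.89 and -2.43, while miR-652 and miR-29b-1 have replicate 4 far to the left of the other points.

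Neighbouring hairpins gave signals of like size in some clusters and unlike size in others. In RefSeq, 33 of the miRNAs lay in 16 groups of hairpins within 10 kb of each other on 1 strand. Mean shares differed by 1.03-fold between miR-133b-3p and miR-206-3p, by 1.10-fold between miR-195-5p and miR-497-5p and by 1.22-fold within the cluster of miR-23a, miR-27a and miR-24. They differed by 25.5-fold between let-7a-5p and its neighbour miR-100-5p, and by 36.2-fold between let-7f-5p and miR-98-5p. The 1.03-fold is a ratio of means over arrays that differed in direction. miR-206-3p had the higher share on replicates 1 and 2 and miR-133b-3p on replicates 3 and 4. On replicate 1 they had 1.46% and 0.983%, and on replicate 4 0.461% and 1.03%. let-7a-5p, let-7f-5p, let-7c-5p and miR-24-3p each come from 2 hairpins in RefSeq, so their signal is not that of 1 locus. miR-24-3p is counted in the clusters of both miR-23a and miR-23b.

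In letters, the detected miRNAs differed from the undetected in their first base. A uridine, which the silencing protein Argonaute favours at the 5′ end, opened 58 of the 96 with a sequence (60.4%) and 153 of 513 that were detected on no sham array (29.8%). The median GC content was 45.5% (27.3% to 72.7%) and 50.0% (22.7% to 83.3%), and the median length was 22 bases in both. GC content also bears on probe binding, and its part in detection was not tested.

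Most miRNAs had a higher signal on the bright replicate 4 than their median over the other arrays, and 12 did not. Over the 106, the signal on replicate 4 was a median of 3.58 times the median of the other 3 arrays, and for the 20 highest it was 1.89 to 6.13 times. The 12 whose signal there was at or below the median of the other 3 arrays were picked out after their values were seen, and all had mean shares under 1%. miR-1224 had 150, 215, 285 and 66.0 units, miR-494-3p 52.2, 85.9, 117 and 35.8 units, and miR-539-5p 11.1, 6.49, 7.40 and 3.09 units. For these 3 replicate 4 was lower than every other array, with ratios of 0.307, 0.416 and 0.417. miR-466b-5p had 38.6, 37.1, 43.2 and 28.9 units, miR-672-5p 34.0, 31.3, 36.0 and 29.1 units, and miR-32-3p 32.3, 29.5, 39.5 and 26.4 units. In these too replicate 4 was the lowest array, but its signal was closer to that on the others, with ratios of 0.750 to 0.857. The remaining 6 were miR-3473, miR-1896, miR-290, miR-466d, miR-652-5p and miR-465-5p, with ratios of 0.836 to 0.954. Of the 12, replicate 4 was the lowest array for all but miR-3473 and miR-1896.

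Together the 12 made up 2.92%, 3.90%, 4.54% and 0.663% of the signal on replicates 1 to 4. They held the 3 miRNAs with the largest spread of share, miR-1224 (log2 SD 1.81), miR-539-5p (1.70) and miR-494-3p (1.59), against a median of 0.38 over the 106. The letters UGUGUG, searched in the mature sequence as written, were in 4 of these 12, in 2 of the other 84 with a sequence (let-7b-5p and miR-206-3p), in 4 of 513 undetected miRNAs and in 11 of 684 (1.61%) of all miRNAs with a sequence on the array. Neither the 12 nor these letters were in the planned analysis, so these counts are a description. The 12 are set off by the cut alone, as other miRNAs had ratios little above 1. Among these were miR-99b-3p (1.12), miR-181d-5p (1.21) and miR-206-3p (1.28). Why the signals of the 12 were no higher on the brighter array was not tested.

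**Figure D5:**
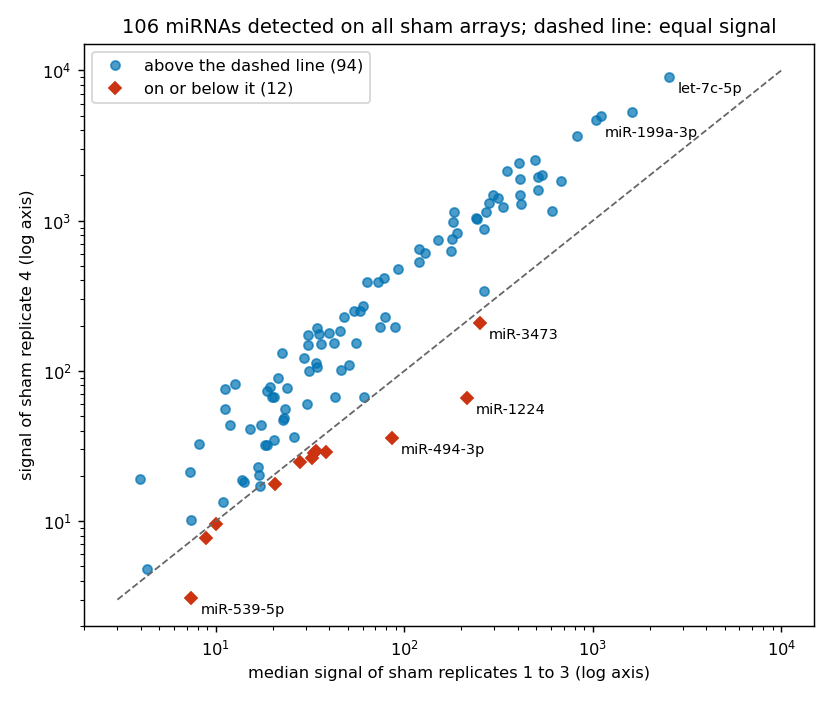
Signal on sham replicate 4 (log y axis) against the median signal of replicates 1 to 3 (log x axis) for the 106 miRNAs; the dashed line marks equal signal. Blue points, 94 miRNAs, lie above the line, and red diamonds, 12 miRNAs with miR-3473, miR-1224, miR-494-3p and miR-539-5p named, lie on or below it.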

How the data were processed

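Per the file headers, the authors extracted spot values with Feature Extraction from Agilent (10.7.3.1) under miRNA_107_Sep09, its miRNA protocol; the array grid names build rn4. Per the labels, RNA was isolated with RNAiso plus, and the labelling text names a Low Input Quick Amp kit and 50 ng of total RNA. Such kits amplify messenger RNA, and whether it was used here is unclear from the labels. The deposited values used are intensities on a linear scale: gTotalGeneSignal, 1 value per miRNA made from its background-subtracted spots and not scaled between arrays, and 0.1 where the software called it not detected. The authors' deposited value table holds the same intensities (largest difference 0, column medians 0.1).

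From these, rat miRNAs that were no controls and were called detected on all 4 sham arrays were taken, and shares were computed as percent of the summed signal of the miRNAs detected on each array (Python 3.11.15, pandas 2.3.3). Of the 106 miRNAs, each has 2 or 4 probes. Spots well above background were 10.5% to 17.0% per array, 0 were saturated, and the software's error was a median of 8.55% to 10.6% of the signal. The number of arrays limits the precision. No groups were compared, and the ACLT arrays were not analysed here; single arrays far from the others were found by their gap over the range (Dixon's 95% critical value for 4 samples, 0.829). The miRNAs named were the 20 highest, members of families and lists, hairpins with both arms, the 5 with the highest and the 5 with the lowest spread, and those at the edge of the rule; others are named where they belong to a count. Members and lists were chosen with earlier results of these data known. Alternatives were other detection rules, totals, signal summaries and leaving out each array. The shares, ranks and arm calls were checked on made-up arrays with known answers.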

Additional observations from a re-analysis of the deposited data

Results flagged for a closer look

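Of 113 values looked at, 10 had 1 array far from the other 3, and 8 of the 10 were on replicate 4. Chance puts about 1 in 20 independent groups past this limit, but shares of an array sum to 100% and families repeat their members, so the count is a description. Figures here are the gap to the nearest array as a part of the range, with log2 shares beside them. Replicate 4 was lowest for miR-125b-5p (0.842, at 1.33 against 1.77 to 1.85), miR-125a-5p (0.846, at -3.61 against -2.79 to -2.64) and so for the miR-125 family (0.848), both members having moved together. It was also lowest for miR-181d-5p (0.886, at -5.17 against -3.72 to -3.54), miR-466b-5p (0.860, at -4.67 against -2.54 to -2.19) and miR-290 (0.832, at -5.37 against -3.46 to -3.07). It was highest for miR-29b-3p (0.864, at -0.92 against -1.65 to -1.55) and for the log2 summed signal (0.876, at 16.2 against 14.1 to 14.4). Replicate 1 was lowest for miR-10a-5p (0.863, at -3.84 against -2.76 to -2.59), and replicate 3, the array with the highest muscle share, was lowest for the let-7 family (0.866, at 4.97 against 5.19 to 5.22).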

How the results depend on the processing

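With detection asked on at least 3 arrays, 114 miRNAs qualified, with spots well above background on all 4 arrays 86, and without 1 array 106 to 112. The shares of let-7c-5p, the 10 highest, 5p arms, the let-7 family and the 2 lists moved by under 1 SD with each alternative run. This was fixed in advance for the authors' value table, which holds the same values. It was also fixed for leaving out 1 array, as that cannot shift a mean of 4 by 1 SD. The arm ratios changed further. With each miRNA's brightest probe in place of the software's summary, the mean log2 of 5p over 3p was -0.22 for miR-140, turning its sign, -2.17 for miR-199a and 4.61 for miR-99a; the cause was not tested. With signal per probe that of miR-99a was 6.84, as its arms have unequal numbers of probes. Leaving out 1 array gave -0.057 to 0.25 for miR-140 and -0.79 to 0.00033 for miR-652. Of 414 values of 46 other shares under alternatives, 15 moved by over 1 SD. With the brightest probe 13 of these moved, such as that of let-7a-5p (4.83%) and miR-125b-5p (4.06%). The 414 include the value table and the runs leaving out 1 array, which could not move by that much. The set of the 5 highest miRNAs was the same with the brightest probe and per probe, though with the brightest probe let-7a-5p and miR-199a-3p changed places. Of the 10 highest 9 and 10 were shared, and of the 20 highest 19 and 20. No paired analysis was possible because 1 group is described. Dim miRNAs lie near the detection limit, so that being undetected is no sign of absence.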

Other observations

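Outside the 106, 568 rat miRNAs were detected on no sham array, 61 on 1, 15 on 2 and 8 on 3. On replicate 4, and on no other sham array, further members of the families and lists were detected, among them miR-20b-5p of the miR-17-92 group (32.3 units), miR-148b-3p (31.6 units), a relative of miR-152-3p, miR-142-5p (26.7 units), and miR-411-5p and miR-381-3p of the Dlk1-Dio3 cluster (26.6 and 24.5 units). None of these was called detected on the 3 dimmer arrays. miR-363-3p, miR-222-3p, miR-148a-3p, miR-130b-3p and miR-301b-3p were detected on none of the 4.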
